A study of Mus musculus with 24 samples.

Results

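RNA from the cerebral cortex of Ptbp2-KO mouse embryos was sequenced in 3 libraries at E18.5, late in gestation. These libraries were chosen by their labelled genotype, age and tissue and are 3 of the 24 samples of the series. The labels call them biological replicates and credit the mice to Licatalosi and colleagues; the strain, the sex and the number of embryos behind each library were not given in the sources used here, nor was the deleted part of Ptbp2. Total RNA was taken with Trizol and ribosomal RNA was removed with Ribo-Zero before library preparation. A wild-type cortex of the same age was not analysed here, so every level below describes the knockout tissue and none measures an effect of the genotype. The only other group used is microglia of adult wild-type C57BL/6 mice injected with phosphate-buffered saline (PBS) daily for 4 days, in 3 libraries. Those cells were taken with CD11b beads, with 2 brains per dissociation tube, and their RNA was selected for poly(A) tails.

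The PTB proteins (polypyrimidine tract-binding proteins PTBP1, PTBP2 and PTBP3) bind pyrimidine-rich RNA and often keep exons out of the mature transcript. PTBP1 is made in dividing progenitors, where it also lowers PTBP2 by changing the splicing of Ptbp2 RNA. As neurons are born, the neuronal microRNA miR-124 represses Ptbp1 and PTBP2 takes its place, until PTBP2 in turn declines as neurons mature. In the late embryonic cortex, apical progenitors (radial glia) line the ventricle, intermediate progenitors divide above them, and newborn excitatory neurons migrate outward to settle in deep layers first and upper layers later. Inhibitory interneurons arrive from the subpallium, below the cortex. In whole tissue, fewer cells of a type and less RNA per cell cannot be told apart.

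The libraries held 27141384, 27415288 and 19446610 gene counts, over 47069 annotated genes. Levels are given as CPM, a gene's counts per 1000000 of the library's summed gene counts, always in the order of replicates 1, 2 and 3. CPM is a share of counts and is not corrected for gene length, so levels are compared between libraries; where genes or lists are said to hold more counts than others, that is a share of counts and not an expression level. At these depths 3 counts were worth 0.111, 0.109 and 0.154 CPM. Replicates 1 and 2 were close to each other, with a Pearson correlation across genes of 0.994 on the log2(CPM + 1) scale, and replicate 3 stood apart, with 0.982 and 0.981 against them; genes are not independent replicates, so these are descriptions. Replicate 3 differed in 4 ways that touch the results below. It carried 5.32% of its counts in a list of 14 predicted, satellite-like genes, against 0.00393% and 0.00240% in replicates 1 and 2. It held Xist, the RNA that silences an X chromosome in females, at 1494 CPM and 4 Y-linked genes near 0, the reverse of the others. Low counts of olfactory receptor genes, which act in sensory neurons of the nose, were spread over nearly all members of that family. Its level was the lowest of the 3 libraries for 7411 of 12101 genes with a mean of 5 CPM or more, which is 61.2%, and the highest for 2390 (19.8%). The common biological coefficient of variation over the 3 libraries was 0.148, and 0.0752 without replicate 3. Mitochondrial genes took 15.2 to 15.5% of counts in the knockout libraries, and the mitochondrial ribosomal RNA mt-Rnr2 made up 13.1 to 13.4% of counts by itself.

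The 4 genes that mark the tissue were all read at depth. Tuba1a, the α-tubulin of growing neurons, had 4923, 4605 and 5555 CPM, and Dcx, the microtubule protein doublecortin of migrating neurons, had 1715, 1676 and 1684 CPM. Fabp7, the fatty acid-binding protein of radial glia, had 452, 551 and 451 CPM. Bcl11b, the transcription factor CTIP2 of deep-layer neurons, had 189, 188 and 121 CPM. Dcx varied little over the libraries, Tuba1a was highest in replicate 3 and Fabp7 in replicate 2, and Bcl11b was lower in replicate 3 than in both others. No marker of the labelled tissue was at or near 0. Counts of Tuba1a are uncertain to the extent that reads of its close copies Tuba1b and Tuba1c were shared between them.

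All 3 PTB genes were counted. Ptbp2 (chr3:119718741-119784647, GRCm38) had 36.7, 28.5 and 26.3 CPM, a mean of 30.5 ± 5.51 CPM (SD, n = 3), from 997, 781 and 511 counts. Counts summed over a gene do not show which exons they came from, and a transcript without the deleted part is still counted, so this value does not check the knockout label. Ptbp1 (chr10:79854432-79864435) had 45.7, 43.6 and 34.2 CPM, a mean of 41.1 ± 6.11 CPM (SD, n = 3). Its counts are uncertain because the annotation places Plppr3 across part of it and the library kit does not mark strand. Ptbp3 (chr4:59471868-59549378), the paralogue best known from blood cells, had 74.2, 75.5 and 65.0 CPM, a mean of 71.6 ± 5.70 CPM (SD, n = 3). Each of the 3 was lowest in replicate 3, by -0.38 (Ptbp1), -0.31 (Ptbp2) and -0.20 (Ptbp3) as log2 of replicate 3 over the mean of replicates 1 and 2, against -0.11 for the median gene. Replicate 3 was lowest for 61.2% of all genes, so this order is common.

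Host transcripts of microRNAs that act in neurons and progenitors were present. Their list was chosen after the data had been seen. The miR-124 host Mir124-2hg had 159.6, 164 and 178 CPM and Mir124a-1hg had 119.9, 104 and 105 CPM. Mir9-3hg, host of miR-9, which promotes neuron formation, had 21.2, 25.8 and 18.6 CPM. Mir17hg, host of the miR-17 to miR-92 cluster of dividing progenitors, had 22.1, 21.0 and 28.2 CPM, and Mir22hg had 2.62, 3.50 and 3.96 CPM. The other members were Mir99ahg with 138, 139.8 and 165 CPM and Mir670hg with 6.96, 6.64 and 5.19 CPM. Replicate 3 was highest for Mir124-2hg, Mir17hg, Mir22hg and Mir99ahg and lowest for Mir9-3hg and Mir670hg. A host transcript's count does not measure the mature microRNA. Mature sequences that lie within the annotated RefSeq span of Mir9-3hg, Mir17hg and Mir22hg are shown because they are the products these counts point to; capitals mark the seed (bases 2 to 8), from RefSeq, build GRCm38.p6, plus strand.
miR-9-5p, chr7:79505279-79505301: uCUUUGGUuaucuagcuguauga
miR-9-3p, chr7:79505318-79505339: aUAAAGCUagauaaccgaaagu
miR-92a-3p, chr14:115044476-115044496: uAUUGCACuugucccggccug
miR-22-3p, chr11:75463772-75463793: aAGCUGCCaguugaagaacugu
The 4 seeds differ from each other.

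Splicing regulators known from neurons were counted in every library. Of 18 listed, all had at least 5 CPM, and together they took 0.352, 0.361 and 0.325% of counts. Celf2, which regulates neuronal exons, had 757, 845 and 818 CPM. Rbfox2, a regulator that reads the GCAUG motif, had 700.1, 691 and 631 CPM. Qk, best known from glia and progenitors, had 433, 459 and 406 CPM, and the neuronal RNA-binding protein gene Elavl3 had 255, 247 and 202 CPM. At the low end, Rbfox3, which encodes the neuronal antigen NeuN, had 22.7, 30.6 and 18.7 CPM and Nova2 had 19.5, 19.7 and 13.7 CPM. The median of the list in replicate 3 was -0.24 (log2 over replicates 1 and 2), and 14 of 18 were lowest there, against 61.2% of all genes. Nova1, singled out after its values were seen, had the largest drop of them in replicate 3, with 96.9, 91.5 and 51.7 CPM.

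General splicing factors, which act in all cells, varied little between libraries. The 20 listed took 0.515, 0.516 and 0.499% of counts. Sf3b1, a core component of the U2 snRNP, had 708, 659 and 654 CPM and Hnrnpk had 622, 659 and 639 CPM. Hnrnph1 had 437, 455 and 444 CPM and the SR protein gene Srsf1 had 444, 427 and 451 CPM. U2af1, which reads the 3′ splice site, had 38.1, 39.8 and 34.8 CPM. Replicate 3 was lowest for 10 of 20, against 61.2% of all genes, and its list median of -0.09 lay near the -0.11 of all genes. Of genes whose exons PTBP2 is known to control, Dlg4 (the synaptic scaffold PSD-95) had 122, 120.4 and 88.4 CPM and Shtn1 (shootin, in axon formation) had 212, 205 and 220.4 CPM. Gene counts hold no exon inclusion, so splicing of these genes was not measured.

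Genes of apical and intermediate progenitors were counted in all 3 libraries. The 15 apical progenitor genes took 0.232, 0.248 and 0.206% of counts and the 8 intermediate progenitor genes took 0.0116, 0.0134 and 0.0121%. Ptprz1, a receptor phosphatase of radial glia, had 788, 825 and 753 CPM, and the matrix protein gene Tnc had 345, 353 and 232 CPM. Slc1a3, the glial glutamate transporter, had 237, 245 and 193 CPM. Tnc and Slc1a3 were lower in replicate 3 than in both others. At the low end Hes1, an effector of Notch signalling, had 5.45, 6.93 and 8.33 CPM and Hopx, of outer radial glia, had 2.36, 3.03 and 3.55 CPM. Hes1 and Hopx were highest in replicate 3. Of the 14 apical genes with a mean of 5 CPM or more, 11 were lowest in replicate 3, with a list median of -0.19. For all genes these were 61.2% and -0.11.

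Among intermediate progenitor genes, Hes6 had 28.8, 32.2 and 36.2 CPM and Insm1, which promotes the departure of progenitors from the ventricle, had 24.3, 28.3 and 24.7 CPM. Btg2, an antiproliferative gene of neurogenic divisions, had 17.4, 20.3 and 17.4 CPM. Eomes, the transcription factor TBR2 that defines this class, had 15.2, 23.1 and 14.7 CPM. Gadd45g had 5.67, 5.62 and 5.19 CPM, and Neurog1 had at most 1 count in a library. Insm1, Btg2 and Eomes were highest in replicate 2 and Hes6 in replicate 3, so this list showed no common order of libraries. Dividing cells were seen through Mki67, the Ki-67 antigen, at 118, 103 and 96.3 CPM and Top2a, the DNA topoisomerase of dividing cells, at 124, 113 and 117 CPM. Ccnd2, a cyclin of cortical progenitors, had 159, 185 and 125 CPM and Pcna, the replication clamp, had 65.0, 63.2 and 67.9 CPM. At the low end Aurkb had 6.78, 5.65 and 4.89 CPM and Birc5 had 5.05, 5.00 and 4.53 CPM. The 11 proliferation genes took 0.0571, 0.0570 and 0.0497% of counts. Replicate 3 was lowest for 5 of the 10 at 5 CPM or more, against 61.2% of all genes. Their median of -0.12 was near the -0.11 of all genes.

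**Figure D1:**
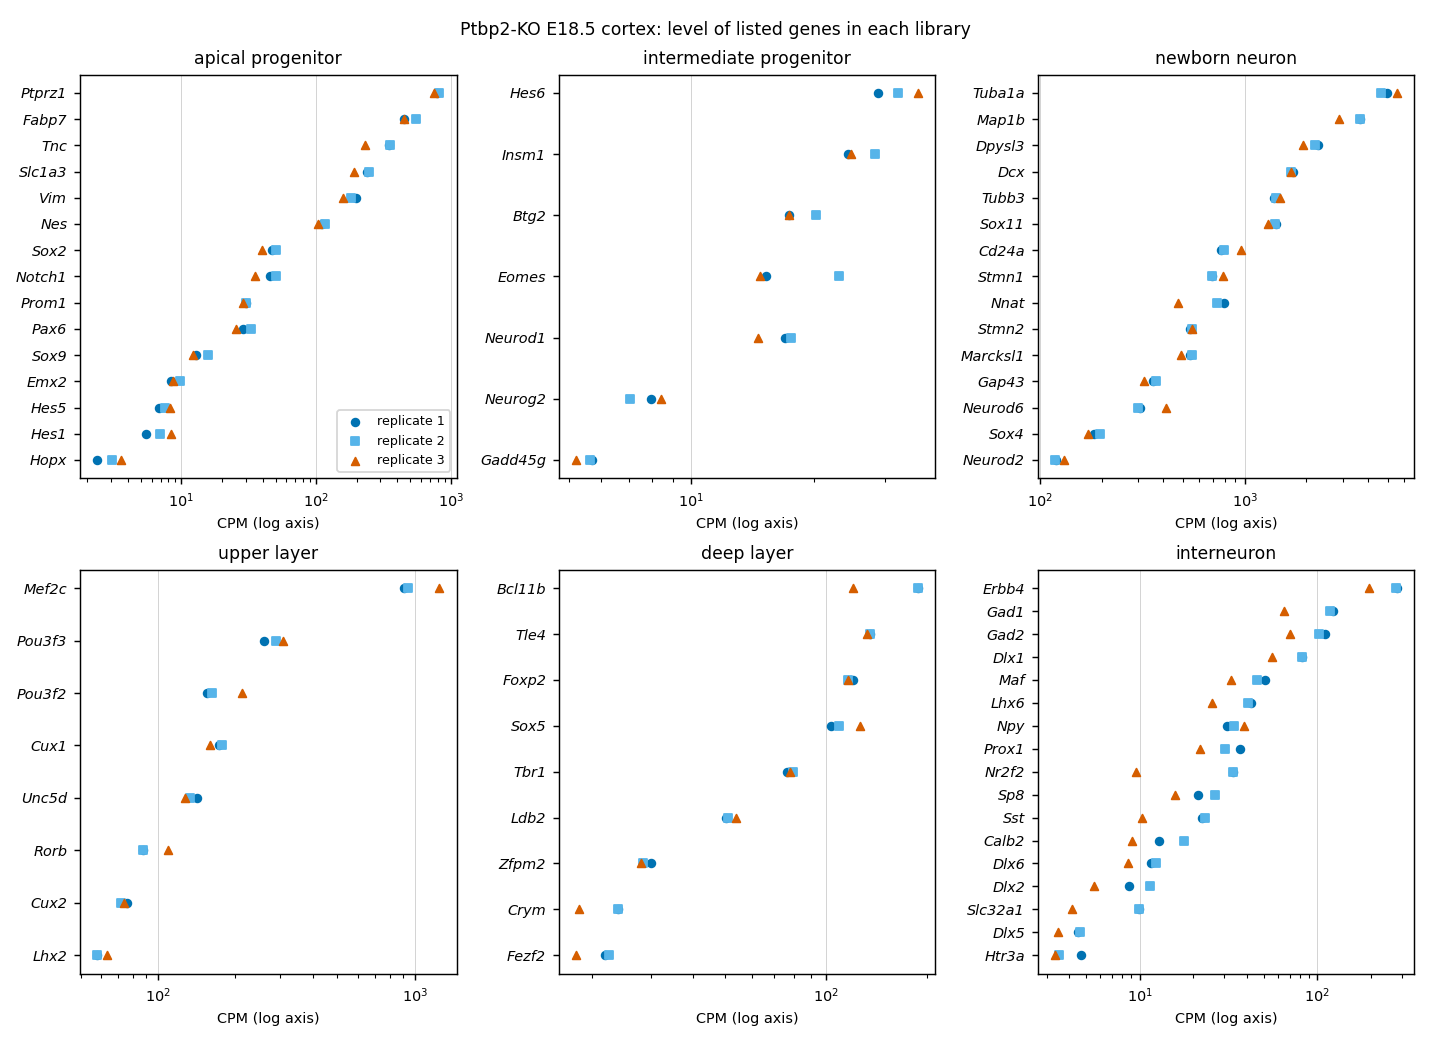
Level of listed progenitor, neuron, layer and interneuron genes (CPM, log axis) in Ptbp2-KO cortex replicates 1, 2 and 3 (circle, square, triangle), genes ordered by mean within each panel; Neurog1, without a count in replicate 1, and genes not reported here are left out. The 3 libraries lie close together for most genes, and replicate 3 sits to the left for most interneuron genes and to the right for most upper-layer genes.

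Genes of newborn neurons held more counts than any other cell type list, 1.97, 1.93 and 1.91% of counts, with a spread of 0.0295 percentage points (SD, n = 3) about a mean of 1.93%. Map1b, which stabilises microtubules in growing axons, had 3657, 3644 and 2872 CPM and Dpysl3, a collapsin response mediator, had 2270.0, 2195 and 1920.2 CPM. Both were lowest in replicate 3, while Tuba1a was highest there. Neurod2, a transcription factor of excitatory neurons, had 119.5, 118 and 131 CPM and Sox4 had 183, 195 and 171 CPM. Replicate 3 was lowest for 7 and highest for 6 of the 15 genes, against 61.2% and 19.8% of all genes, and the list median was -0.01. The extremes, Neurod6 with 309, 301 and 414 CPM and the imprinted gene Nnat with 793, 734 and 472 CPM, were singled out after their values were seen. Nnat lies within an intron of Blcap, so its counts are uncertain without strand.

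Upper-layer genes tended to be highest in replicate 3 and deep-layer genes did not. The 9 upper-layer genes took 0.212, 0.218 and 0.266% of counts, and replicate 3 was highest for 6 of 9, against 19.8% of all genes. Mef2c, a transcription factor of cortical neurons, had 904, 945 and 1247 CPM. Pou3f3 had 259.6, 288 and 307 CPM and Pou3f2, also called Brn2, had 155, 163 and 213 CPM. In Mef2c, Pou3f3 and Pou3f2 replicate 3 lay above both others. Cux2 with 76.0, 71.6 and 73.5 CPM and Lhx2 with 57.9, 57.9 and 63.5 CPM moved little. The list median in replicate 3 was 0.16 on the log2 scale, where the median of all genes was -0.11.

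The 9 deep-layer genes took 0.0750, 0.0755 and 0.0691% of counts. Tle4, a corepressor of corticothalamic neurons, had 135, 135 and 132 CPM and Foxp2 had 120.4, 117 and 116 CPM. Sox5, which times the birth of deep-layer neurons, had 103, 109.5 and 126 CPM. Tle4 and Foxp2 were nearly level over the libraries, and Sox5 was highest in replicate 3. Fezf2, which specifies subcerebral projection neurons, had 21.9, 22.5 and 17.9 CPM and the thyroid hormone-binding crystallin gene Crym had 23.9, 24.0 and 18.3 CPM. These, with Bcl11b, were lowest in replicate 3, so the members of the list did not move together, and their median was -0.03. Tbr1, the transcription factor of the earliest-born cortical neurons, was singled out after its values were seen, with 76.2, 79.8 and 77.8 CPM. It was nearly level over the libraries.

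Early-born neurons of the cortical margins were seen in part. Reln, secreted by Cajal-Retzius cells and some interneurons, had 506, 611 and 362 CPM and was lowest in replicate 3. The other Cajal-Retzius genes were read more thinly, with 14.4, 11.5 and 11.4 CPM for Nhlh2, 4.57, 4.78 and 3.39 CPM for Trp73 (p73) and 2.98, 1.97 and 1.34 CPM for Lhx5. Ebf2 had 1.40, 2.12 and 1.44 CPM and Lhx1 had 1.03, 0.912 and 0.514 CPM, so no member of this list was at 0. Of the subplate genes Nr4a2 (Nurr1) had 36.3, 37.2 and 36.2 CPM and Ccn2 had 4.64, 4.67 and 4.68 CPM, both nearly equal over the libraries. Nxph4 had 0.921, 0.802 and 0.668 CPM and Cplx3 had 0.111, 0.219 and 0.360 CPM, near the level of 3 counts.

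Interneuron genes were lower in replicate 3 nearly throughout. The 18 genes took 0.0922, 0.0911 and 0.0595% of counts. Of the 16 with a mean of 5 CPM or more, 15 were lowest in replicate 3, against 61.2% of all genes, with a list median of -0.66 on the log2 scale, against -0.11 for all genes. Replicate 3 is a single library, so this difference has no replicate and no test. Gad1, which makes the transmitter GABA, had 122, 118 and 64.7 CPM and its paralogue Gad2 had 111, 103 and 70.3 CPM. Dlx1, a homeobox gene of the subpallium, had 82.2, 81.6 and 55.8 CPM and the neuregulin receptor gene Erbb4 had 281, 276 and 196 CPM. In each of these 4 replicates 1 and 2 were close and replicate 3 stood below both. The 2 lowest members had 4.49, 4.63 and 3.50 CPM (Dlx5) and 4.68, 3.54 and 3.34 CPM (Htr3a, the serotonin receptor of caudal interneurons).

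Other interneuron genes, singled out after their values were seen, stood for both main origins of these cells. Lhx6, which marks interneurons of the medial ganglionic eminence, had 42.4, 40.9 and 25.5 CPM and Sst, the somatostatin gene of a subset of them, had 22.6, 23.2 and 10.3 CPM. Nr2f2 (COUP-TFII), of caudal origin, had 33.4, 33.4 and 9.56 CPM, and Sp8, also of caudal and lateral origin, had 21.2, 26.6 and 15.8 CPM. Slc32a1, the vesicular GABA transporter, had 9.95, 9.99 and 4.17 CPM. The exception was Npy, the neuropeptide Y gene, with 31.2, 33.8 and 38.5 CPM, highest in replicate 3. Genes of the subpallium and striatum, the tissue below the cortex, took 0.0608, 0.0573 and 0.0475% of counts. Of the 11 at 5 CPM or more, 10 were lowest in replicate 3, against 61.2% of all genes. Their median was -0.29, against -0.11. Lhx8 and Nkx2-1, which mark the medial ganglionic eminence itself, had 10.7, 8.72 and 2.83 CPM and 4.68, 3.28 and 1.23 CPM, both lowest in replicate 3. The striatal dopamine receptor gene Drd1, with 18.4, 15.1 and 18.2 CPM, was not lowest there. Where the cortex was cut from its surroundings was not given, and the part of dissection in these differences was not tested.

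**Figure D2:**
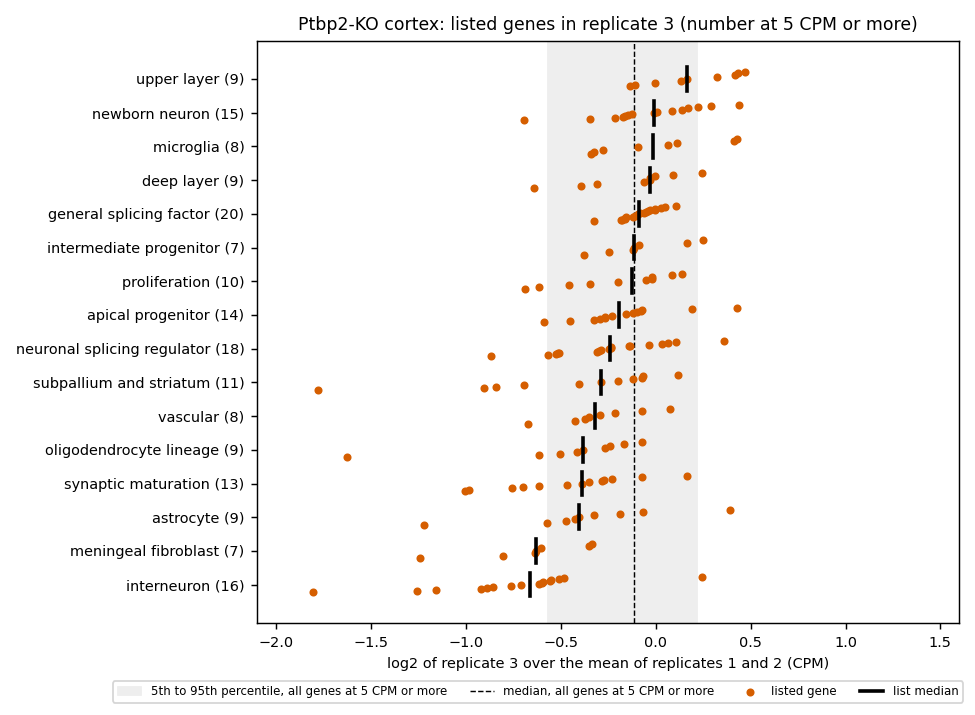
Log2 of CPM in replicate 3 over the mean of replicates 1 and 2 for listed genes with a mean of 5 CPM or more (points) and the list median (bar); the grey band spans the 5th to 95th percentile of all such genes, -0.57 to 0.22, and the dashed line is their median, -0.11. The interneuron and meningeal medians, -0.66 and -0.63, lie left of the dashed line and the upper-layer median, 0.16, lies right of it; the band shows single genes and is no measure of a median's spread.

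Genes of maturing synapses were read at this late embryonic age. The 13 listed took 0.282, 0.289 and 0.253% of counts. Gria2, the AMPA receptor subunit that limits calcium entry, had 1064, 1040.0 and 1179 CPM and Grin2b, the NMDA receptor subunit of the young brain, had 893, 943 and 719.9 CPM. Gria1 had 248, 248 and 147 CPM and the calcium sensor gene Syt1 had 168, 179 and 148 CPM. At the low end, Camk2a had 22.4, 25.8 and 12.2 CPM and Slc17a7, the vesicular glutamate transporter of mature cortex, had 19.0, 23.5 and 13.1 CPM. Replicate 3 was lowest for 11 of 13, against 61.2% of all genes, with a list median of -0.39, against -0.11. Gria2 was the exception that was highest there. The chloride transporters were Slc12a2, which loads chloride into young neurons, with 109, 111 and 90.8 CPM, and Slc12a5, which removes it from mature ones, with 62.0, 58.0 and 29.9 CPM. They were singled out after their values were seen, and both were lowest in replicate 3.

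Genes of astrocytes and of the oligodendrocyte lineage were counted, including some myelin genes. Summed gene counts do not show which exons or transcripts were read, so counts of myelin genes do not show myelin. Astrocyte genes took 0.0946, 0.102 and 0.0720% of counts. Sparcl1 had 298, 311 and 227 CPM and Slc1a2, a glutamate transporter gene, had 202, 223 and 143 CPM. Apoe had 159, 174 and 120.0 CPM and Aldoc had 79.7, 79.6 and 76.2 CPM, while S100b had 1.88, 2.81 and 1.29 CPM and Agt had 1.47, 2.15 and 0.514 CPM. Of the 9 astrocyte genes at 5 CPM or more, 8 were lowest in replicate 3 and Gfap, at 19.4, 23.7 and 28.3 CPM, was highest there. Oligodendrocyte lineage genes took 0.0246, 0.0265 and 0.0201% of counts. Pdgfra, the receptor of oligodendrocyte precursors, had 87.9, 91.0 and 75.6 CPM and Olig1 had 27.9, 26.3 and 25.8 CPM. The myelin gene Mog had 33.3, 26.8 and 26.7 CPM and Mbp had 21.5, 21.4 and 16.1 CPM, while Mag, another myelin gene, had 0.921, 0.948 and 0.823 CPM and Sox10 had 2.25, 4.67 and 3.09 CPM. All 9 oligodendrocyte lineage genes at 5 CPM or more were lowest in replicate 3, with a list median of -0.38. For both glial lists the background is 61.2% of all genes lowest there, with a median of -0.11.

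Genes of microglia, vessels and meninges were counted as well. The 12 microglia genes took 0.00951, 0.00986 and 0.00985% of counts, nearly equal over the libraries, with Csf1r at 22.6, 24.6 and 18.6 CPM. Cx3cr1 had 10.5, 11.3 and 8.999 CPM and P2ry12 had 9.65, 8.35 and 11.98 CPM, while Tmem119 had 1.84, 1.97 and 1.49 CPM and Itgam had 0.368, 0.438 and 0.617 CPM. Vascular genes took 0.0341, 0.0336 and 0.0274% of counts, from Rgs5 of pericytes with 110.0, 105 and 87.8 CPM to Slco1a4 with 5.38, 2.33 and 3.19 CPM. Rgs5 was lowest in replicate 3 and Slco1a4 highest in replicate 1. Between these, Kdr had 60.5, 59.6 and 44.7 CPM, Itm2a 39.98, 40.3 and 34.6 CPM, Cldn5 34.9, 40.7 and 36.0 CPM and Abcb1a 9.17, 10.2 and 10.2 CPM. Meningeal fibroblast genes took 0.0459, 0.0490 and 0.0271% of counts. All 7 were lowest in replicate 3, against 61.2% of all genes, with a median of -0.63, against -0.11. Collagen Col3a1 had 140.0, 155 and 94.7 CPM, the growth factor gene Igf2 had 147, 133 and 59.2 CPM, Col1a2 had 90.4, 102 and 54.9 CPM and Dcn had 36.6, 46.8 and 27.4 CPM. Foxc1 had 11.0, 14.3 and 9.87 CPM and Lum had 9.58, 9.74 and 7.66 CPM.

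Choroid plexus genes were the most uneven cell type list and did not follow replicate 3. They took 0.0681, 0.00396 and 0.0204% of counts. Ttr, the thyroid hormone carrier that choroid plexus secretes, had 636, 24.2 and 184 CPM, highest in replicate 1 and lowest in replicate 2. Clic6 with 12.5, 2.44 and 3.24 CPM and Folr1 with 6.78, 0.292 and 1.95 CPM also had their highest level in replicate 1. Aqp1 had 11.3, 5.98 and 4.47 CPM, Otx2 5.20, 1.90 and 3.50 CPM, Kcnj13 2.47, 1.46 and 2.52 CPM and Kl 2.03, 1.42 and 1.13 CPM. Of these, Kcnj13 alone was not highest in replicate 1. How much choroid plexus was taken with the cortex was not given.

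Red blood cell genes took 0.0472, 0.0433 and 0.0399% of counts, with Hbb-bs at 264, 264 and 252 CPM and Hba-a1 at 155, 128.1 and 108 CPM; reads of near-identical globin copies may have been divided between them, which is why Hba-a2 at 0.184, 0 and 0 CPM is not a reliable level. Alas2, of haem synthesis, had 20.5, 22.3 and 17.9 CPM and Hbb-bt had 29.0, 16.9 and 17.9 CPM, while the embryonic Hbb-y and Hba-x stayed at 0.405, 0.219 and 0.309 CPM and 0.0368, 0.109 and 0 CPM. Hbb-bs differed little between libraries, Hba-a1 was lowest in replicate 3 and Hbb-bt was highest in replicate 1. Immediate early genes, which cells switch on quickly after activity or handling, were counted at up to 17.6 CPM. Dusp1 had 16.2, 17.6 and 15.1 CPM, Egr1 5.71, 7.66 and 3.14 CPM, Junb 4.24, 6.27 and 4.89 CPM and Nr4a1 2.84, 4.27 and 3.34 CPM. Npas4 had 2.62, 2.88 and 1.85 CPM, Fos 1.11, 2.37 and 2.16 CPM and Fosb 0.184, 0.328 and 0.0514 CPM. Fos was lowest in replicate 1, and Egr1, Npas4 and Fosb in replicate 3.

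**Figure D3:**
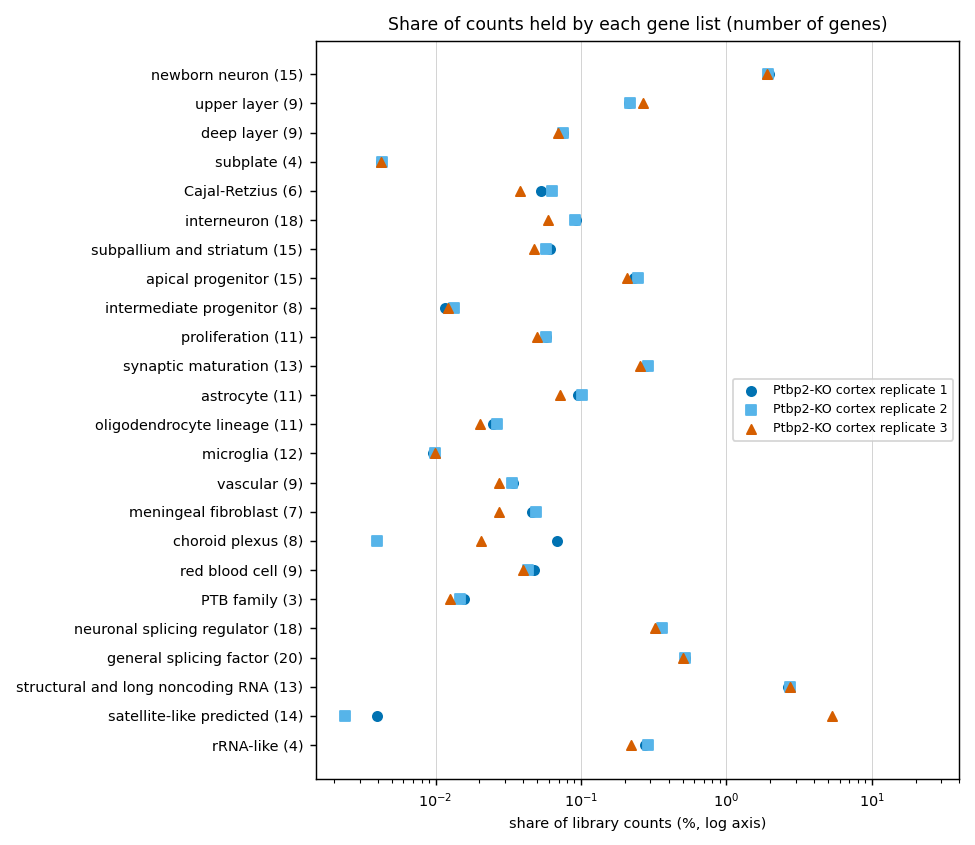
Share of library counts (%, log axis) that each gene list took in Ptbp2-KO cortex replicates 1, 2 and 3 (circle, square, triangle), with the number of genes in parentheses; shares of different lists are not comparable as levels, since genes differ in length. For most lists the 3 libraries lie close together, satellite-like genes stand at 5.32% in replicate 3 alone, and choroid plexus genes spread the most among cell types.

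Structural and long noncoding RNAs took 2.66, 2.73 and 2.73% of counts over 13 listed genes; ribosomal depletion keeps RNA without poly(A) tails. Rn7sk, the 7SK RNA that holds back transcription elongation, had 16964, 17154 and 18467 CPM and Rpph1, the RNA of RNase P, had 3495, 3879 and 3642 CPM. The nuclear RNA Malat1 had 4178, 4335 and 3751 CPM and the imprinted RNA Rian had 805, 747 and 625 CPM. Rny3 had 13.3, 8.61 and 12.03 CPM and Terc, the telomerase RNA, had 7.00, 7.26 and 8.07 CPM. Malat1 and Rian were lowest in replicate 3 and Rn7sk was highest there. Meg3, of the same imprinted region as Rian, had 693, 739 and 399 CPM and was lowest in replicate 3, as was Snhg11 with 99.0, 86.2 and 34.3 CPM; both were singled out after their values were seen. Of the rRNA-like list, Gm26917 had 2715, 2795 and 2195 CPM and Lars2, which holds a stretch like ribosomal RNA, had 24.9, 77.3 and 25.97 CPM, while Gm42418 and AY036118 were listed at 0 in all 3 libraries. With mitochondrial and predicted genes left out, several of the genes with the most counts act in protein synthesis or the cytoskeleton. Eef1a1 had 5176, 4896 and 5196 CPM, Eef2 1744, 1642 and 1553 CPM, Actb 2596, 2698 and 2389 CPM and Tubb5 2338, 2429 and 2289.9 CPM. Sptan1 had 2447, 2338 and 2198 CPM, Map2 2219.7, 2309 and 2015 CPM, the ubiquitin ligase gene Ttc3 2123, 2098 and 1982 CPM and Tubb2b 1724, 1790.5 and 1678 CPM. In each of these 8 the libraries lay close together.

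Among genes with a mean of 10 CPM or more, 113 of 10015 (1.13%) had a highest library at least 2-fold above the lowest, and 20 when only replicates 1 and 2 were compared. The satellite-like predicted genes, described below, are among them. With predicted genes left out, the largest ratios were in Y-linked genes and Xist. Kdm5d had 91.7, 90.1 and 0.103 CPM, Uty 85.2, 83.3 and 0.206 CPM, Eif2s3y 79.9, 78.6 and 0.309 CPM and Ddx3y 101, 101 and 0.566 CPM. Xist had 52.0, 6.13 and 1494 CPM. Replicates 1 and 2 thus carried Y-linked transcripts and replicate 3 Xist, and the labels give no sex. Replication-dependent histone genes followed among named genes, with 42.1, 25.1 and 0.926 CPM for Hist1h3f and 24.1, 12.5 and 0.720 CPM for Hist1h3c, both far lower in replicate 3. Over 67 clustered histone genes, a list chosen after the data had been seen, the median in replicate 3 was -0.30, against -0.11 for all genes. Of the 41 at 5 CPM or more, 34 were lowest there, against 61.2% of all genes. Histone genes are near-identical copies, so counts of any member are uncertain.

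Other named genes of large ratio were of several kinds. Slc7a11, the cystine-glutamate exchanger, had 190.4, 306 and 37.1 CPM and Dynlt1b, a dynein light chain, had 10.02, 17.9 and 2.26 CPM; Dynlt1b has close copies and its counts are uncertain. Cwc22, a splicing factor that loads the exon junction complex, had 43.5, 262 and 42.5 CPM, high in replicate 2 alone, and was singled out after its values were seen. Of 9574 protein-coding genes with a mean of 10 CPM or more, 43 were at least 2-fold lower in replicate 3 than in both others. The 43 included Nrp2, the semaphorin receptor of migrating interneurons, with 206, 203 and 74.7 CPM, Gja1 of astrocytes with 80.9, 91.7 and 37.0 CPM and Hap1 with 95.5, 76.9 and 22.2 CPM. These were singled out after their values were seen.

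Counts far higher in replicate 3 (at least 4-fold over the higher of the others, at 5 CPM or more) came from 20 of 11867 genes (0.169%), and 12 of these were satellite-like predicted genes. Satellite DNA is the tandem repeat of centromeres. The list was drawn from predicted genes known to resemble it, and their sequences were not examined here. It was chosen with earlier results of these data known, so the 12 of 20 is a description and no test. Gm10800 had 17.7, 7.26 and 41432 CPM, from 480, 199 and 805710 counts. Gm21738 had 1.77, 0.875 and 5194 CPM, Gm10801 1.29, 0.365 and 3755 CPM and Gm26870 0.553, 0.182 and 1366 CPM. For Gm10800 replicate 3 was 2343-fold above replicate 1, with a 95% counting interval of 2142 to 2567. The ratios of Gm21738, Gm10801 and Gm26870 to replicate 1 were 2937, 2912 and 2471. Reads are not independent molecules, so these intervals cover counting error only.

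Smaller members behaved likewise. Gm10722 had 0.184, 0.0730 and 585 CPM, Gm10717 0.147, 0.0365 and 322 CPM and Gm10718 0.0368, 0 and 205 CPM. Gm11168 had 0.0368, 0.0365 and 138 CPM and Gm10719 had 0.0368, 0.0365 and 103 CPM. Gm10720, Gm17535 and Gm10715 had no count in replicates 1 and 2 and 14.2, 13.1 and 12.2 CPM in replicate 3, at least 128.4-fold, 118-fold and 111-fold above 3 counts in a library. Likewise 2410141K09Rik had no count in the others and 5.25 CPM in replicate 3, at least 47.5-fold above that floor. Of the other listed genes, Gm28438 was level at 17.6, 15.1 and 16.1 CPM, and Gm10721 had 0, 0 and 4.53 CPM, under the minimum of 5. The satellite-like genes resemble each other, so reads may have been divided between them and their sum is firmer than any member. The other 7 of the 20 were Xist, Fsip2, Gm6166, Gm10020, Rpl15-ps2, Gm37985 and Gm16503.

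Sensory receptor genes also had more counts in replicate 3. Of 1213 olfactory receptor genes, 226, 349 and 1124 had at least 1 count in replicates 1, 2 and 3, which is 18.6, 28.8 and 92.7%. At equal depth, with the deeper libraries thinned to the total of replicate 3, the shares were 14.2, 21.6 and 92.7%. The summed level of these genes was 20.3, 24.3 and 233 CPM. In replicate 3 the median was 3 counts a gene, so nearly all were read and each rarely. Of 295 vomeronasal receptor genes, 89, 137 and 237 had a count. Over the whole annotation 29970, 30850 and 37123 genes had a count, and 16783, 16874 and 16978 reached 1 CPM. Their part in the lower levels of interneuron, meningeal and other genes of replicate 3 was not tested; with mitochondrial and satellite-like genes taken out of the total, the interneuron median was -0.52 and the median of all genes -0.02.

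**Figure D4:**
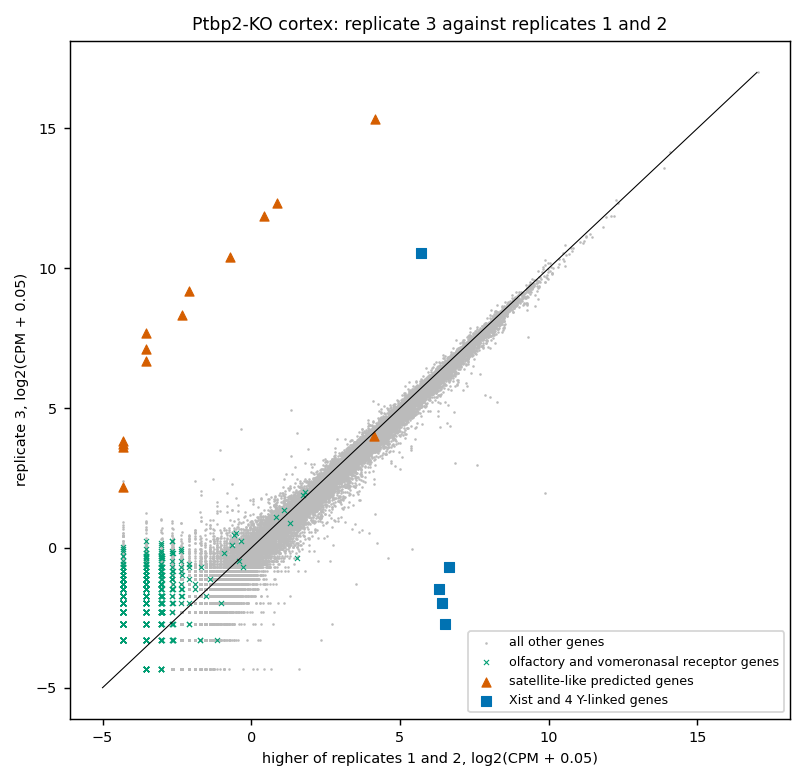
Each gene's level in replicate 3 against the higher of replicates 1 and 2, both as log2(CPM + 0.05), over all genes with a count in a knockout library; the line marks equal levels. Most genes follow the line, 13 satellite-like genes (triangles) rise far above it, Xist lies above and 4 Y-linked genes far below it (squares), and olfactory and vomeronasal receptor genes (crosses) form a cloud at low level above the line.

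Ptbp2-KO cortex was compared with PBS microglia in the only test across groups made here. Genotype, age, tissue, cell isolation, RNA selection and depth all differ between these groups and cannot be told apart, so the comparison shows what sets the cortex libraries off from another brain cell preparation and nothing of the knockout. The microglia libraries held 2019896, 1254076 and 1751725 counts, far fewer than the cortex. Among them, replicates 1 and 2 held Xist at 1154 and 1181 CPM and replicate 3 held Y-linked genes. Of 17454 genes tested with edgeR's quasi-likelihood test, 14105 (80.8%) passed an adjusted p of 0.05, with 8755 (50.2%) higher and 5350 (30.7%) lower in Ptbp2-KO cortex. With most genes called, a call alone says little, so levels and sizes are given. The median log2 difference over all genes tested was 0.56.

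Neuronal lists were higher in the cortex, with few exceptions. All 15 newborn neuron genes were higher, against 50.2% of all genes, with a median log2 difference of 7.94, and so were 9 of 9 deep-layer genes (median 6.66), 8 of 9 upper-layer genes (median 6.75) and 15 of 18 interneuron genes (median 8.17). Because 7 interneuron genes had no count in microglia, the median with those genes at their lower bound is 5.06. Such genes numbered 3 in the newborn neuron list, 1 in the deep-layer list and 1 in the upper-layer list. Genes without a microglia count passed the filter through the cortex alone and could only be called higher. Tuba1a had 4923, 4605 and 5555 CPM in Ptbp2-KO cortex and 76.2, 58.2 and 46.2 CPM in PBS microglia, a log2 difference of 6.40 ± 0.23 (SE), edgeR adjusted p = 4.62e-10. Fabp7 had 452, 551 and 451 CPM in Ptbp2-KO cortex and 1.49, 0.797 and 0 CPM in PBS microglia, a log2 difference of 9.25 ± 0.27 (SE), edgeR adjusted p = 1.04e-10. Neither gene overlapped between the groups, as for 83.7% of all genes tested. Dcx and Bcl11b had no count in microglia; against 3 counts over the group they were at least 2834-fold and at least 278-fold higher in the cortex. Among the interneuron genes Nr2f2 and Prox1 were not called. Lower in the cortex were Cux1, of upper layers, with 173, 177 and 159 CPM in Ptbp2-KO cortex and 201, 197 and 196 CPM in PBS microglia, and Maf, of interneurons and macrophages, with 50.4, 45.9 and 32.8 CPM in Ptbp2-KO cortex and 958, 1017 and 956 CPM in PBS microglia. Without replicate 3 the counts were 15 of 15, 9 of 9, 8 of 9 and 14 of 16.

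Progenitor lists were less uniform. Of 15 apical progenitor genes 10 were higher and 2 lower, and of 7 intermediate progenitor genes tested 5 were higher and 2 lower. Of all genes tested, 50.2% were higher and 30.7% lower. In each progenitor list 2 genes had no count in microglia. Notch1 was lower, with 45.8, 50.3 and 35.1 CPM in Ptbp2-KO cortex and 137, 140.3 and 156 CPM in PBS microglia, as was Hes1, with 5.45, 6.93 and 8.33 CPM in Ptbp2-KO cortex and 19.8, 14.4 and 20.6 CPM in PBS microglia. Btg2 was lower, with 17.4, 20.3 and 17.4 CPM in Ptbp2-KO cortex and 577, 683 and 652 CPM in PBS microglia. Btg2 is also an immediate early gene, and 7 of 9 immediate early genes were lower in the cortex, against 30.7% of all genes. Fos had 1.11, 2.37 and 2.16 CPM in Ptbp2-KO cortex and 991, 1361 and 1199 CPM in PBS microglia, a log2 difference of -9.28 ± 0.27 (SE), edgeR adjusted p = 9.98e-11. The other 2 were Arc, with 3 counts in all microglia libraries, and Npas4, with none, both higher in the cortex. Of 11 proliferation genes 8 were higher and Ccnd1 was lower. Against 50.2% of all genes, clustered histone genes were higher for 44 of 45 tested, with a median of 6.64. Of the 45, 15 had no count in microglia and could be called in no other direction. With those at their lower bound the median is 4.87. Higher too were 12 of 13 structural and long noncoding RNAs (3 without a count in microglia), all but Neat1. Among them was Rn7sk with 16964, 17154 and 18467 CPM in Ptbp2-KO cortex and 101, 50.2 and 41.7 CPM in PBS microglia. Histone messages and RNAs such as Rn7sk lack poly(A) tails, and poly(A) selection was used for microglia only.

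All 3 PTB genes were lower in Ptbp2-KO cortex than in PBS microglia, as were 30.7% of all genes tested. Ptbp1 had 45.7, 43.6 and 34.2 CPM in Ptbp2-KO cortex and 187, 195 and 220.4 CPM in PBS microglia, a log2 difference of -2.26 ± 0.10 (SE), edgeR adjusted p = 3.83e-09. Ptbp2 had 36.7, 28.5 and 26.3 CPM in Ptbp2-KO cortex and 62.9, 73.4 and 66.2 CPM in PBS microglia, a log2 difference of -1.12 ± 0.14 (SE), edgeR adjusted p = 1.96e-05. Ptbp3 had 74.2, 75.5 and 65.0 CPM in Ptbp2-KO cortex and 421, 411 and 442 CPM in PBS microglia, a log2 difference of -2.55 ± 0.08 (SE), edgeR adjusted p = 2.36e-10. In no case did the groups overlap, as for 83.7% of all genes tested. Genotype, tissue and age cannot be told apart in the lower level of Ptbp2.

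Of 18 neuronal splicing regulators 15 were higher and 3 lower, against 50.2% higher and 30.7% lower of all genes tested. Of the 18, 2 had no count in microglia. Rbfox2 had 700.1, 691 and 631 CPM in Ptbp2-KO cortex and 19.3, 14.4 and 24.5 CPM in PBS microglia, a log2 difference of 5.11 ± 0.14 (SE), edgeR adjusted p = 8.04e-11. Elavl2, an RNA-binding protein of neurons, had no count in microglia and was at least 268-fold higher. The 3 that were lower were Mbnl1, Mbnl2 and Qk, regulators made in many tissues. Mbnl1 had 107, 108 and 105 CPM in Ptbp2-KO cortex and 863, 778 and 1012 CPM in PBS microglia, a log2 difference of -3.03 ± 0.11 (SE), edgeR adjusted p = 6.1e-10. General splicing factors were divided, 9 higher and 8 lower of 20, not far from those shares. Their median was 0.09, against 0.56 for all genes tested. Srsf1 had 444, 427 and 451 CPM in Ptbp2-KO cortex and 145, 135 and 106 CPM in PBS microglia. Dlg4 and Shtn1 were higher in the cortex, by 1.82 (Dlg4) and 4.50 (Shtn1) on the log2 scale. Of the 7 microRNA hosts 6 were higher, against 50.2% of all genes tested, and Mir22hg was not called. Of these hosts 3 had no count in microglia.

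Glial and other lists went both ways, where 50.2% of all genes tested were higher and 30.7% lower. The 12 microglia genes were all lower, with a median of -8.87; Cx3cr1 had 10.5, 11.3 and 8.999 CPM in Ptbp2-KO cortex and 6248, 6558 and 6815 CPM in PBS microglia. Microglia were the cells selected for the other group, so the direction of the microglia list was set by the design. Of 11 astrocyte genes 7 were higher and 2 lower, and of 11 oligodendrocyte genes 6 were higher and 5 lower. Mog was higher, with 33.3, 26.8 and 26.7 CPM in Ptbp2-KO cortex and 2.97, 1.59 and 2.28 CPM in PBS microglia, whereas Mag was lower, with 0.921, 0.948 and 0.823 CPM in Ptbp2-KO cortex and 34.7, 35.9 and 24.5 CPM in PBS microglia. Choroid plexus genes were lower for 8 of 8, and Ttr had 636, 24.2 and 184 CPM in Ptbp2-KO cortex and 7684, 7146 and 1748 CPM in PBS microglia. Vascular genes were lower for 8 of 9. In the 1 remaining, Kdr, the difference was not called. The bead-selected microglia thus held RNA of choroid plexus and vessels, and the part of this in the lower calls was not tested.

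By fitted log2 difference, at an average log2 CPM of 3 or more, the 6 genes at the high end had no count in microglia, so their order among themselves and against other genes is not established. Besides Dcx, Grin2b had 893, 943 and 719.9 CPM in Ptbp2-KO cortex and no count in PBS microglia, at least 1427-fold higher. Hecw1 was at least 839.7-fold higher, Csrnp3 at least 789.6-fold, Syt4, of dense-core vesicles, at least 772-fold and Epha5, an ephrin receptor of axon guidance, at least 617-fold. At the low end the genes were of immune cells. Selplg, the P-selectin ligand, had 0.368, 0.547 and 0.771 CPM in Ptbp2-KO cortex and 3241, 3319.6 and 3052 CPM in PBS microglia, a log2 difference of -12.47 ± 0.25 (SE), edgeR adjusted p = 7.09e-12. Ccl4, a chemokine, had 0.184, 0.255 and 0.154 CPM in Ptbp2-KO cortex and 236, 285 and 359 CPM in PBS microglia. Rgs1 had 0, 0 and 0.977 CPM in Ptbp2-KO cortex and 346, 344 and 366 CPM in PBS microglia. C5ar2, Trim12a and Nlrp1c-ps had at most 2 counts in a cortex library, against 103, 96.5 and 100.5 CPM for C5ar2, 42.6, 43.1 and 47.4 CPM for Trim12a and 36.1, 44.7 and 52.5 CPM for Nlrp1c-ps in PBS microglia. All 6 stayed below 1 CPM in every cortex library, and none overlapped between groups, as for 83.7% of all genes tested. They were chosen for the largest differences, so neither trait adds to that choice.

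**Figure D5:**
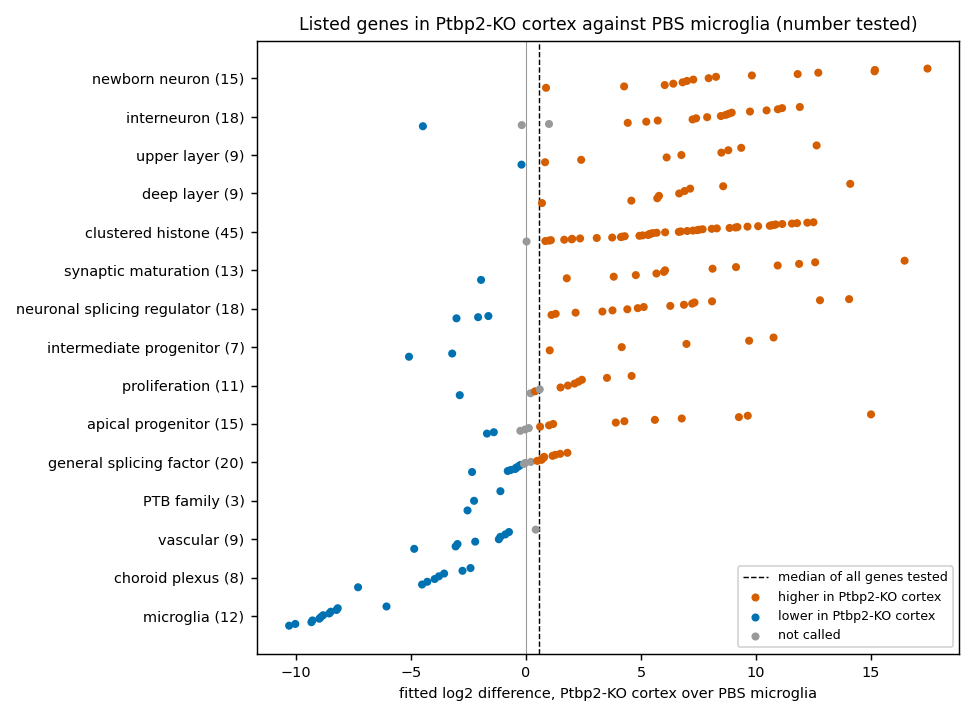
Fitted log2 difference of Ptbp2-KO cortex over PBS microglia for each listed gene tested, coloured by the edgeR call at an adjusted p of 0.05; the dashed line is the median of all genes tested, 0.56, and fitted values of genes without a count in microglia are not bounds. Newborn neuron genes lie to the right and microglia genes to the left, PTB family genes lie to the left, and general splicing factors straddle the lines.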

How the data were processed

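Gene counts were measured by RNA-seq (TruSeq RNA v2, a kit that does not mark strand) in 3 Ptbp2-KO E18.5 cortex libraries and 3 PBS microglia libraries. The authors deposited whole-number counts for 47069 Ensembl genes per library, not normalized; STAR and mm10 are named in the submitters' processing notes, without versions, and the annotation, the counter and its use of strand were not given in the sources used here. Symbols were found for 46488 genes. From the counts, CPM per library total was computed with Python 3.11.15 and pandas 2.3.3, and figures were drawn with matplotlib 3.10.9.

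Ptbp2-KO cortex was compared with PBS microglia in R 4.3.3 with edgeR 4.0.16 (filterByExpr, TMM, quasi-likelihood test, Benjamini-Hochberg adjustment over all 17454 genes tested, threshold 0.05). The same steps had first been run on simulated data with 200 changed genes and all others unchanged. In the real data 80.8% of genes were called, so that run checks the steps and not the scaling of this comparison. DESeq2 1.42.0 was an alternative. The labels call the libraries biological replicates without naming animals, so p-values measure the spread between these libraries. Library depth was 19446610 to 27415288 counts for cortex and 1254076 to 2019896 for microglia. A floor of 3 counts was used where a group had none; intervals and floors cover counting error only. No per-length level was computed, for want of exonic lengths.

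The members and the gene lists were chosen with earlier results of these data known. Named genes are Ptbp1, Ptbp2, Ptbp3 and the 4 markers; in each list the 4 highest and 2 lowest by mean CPM; the 15 with most counts, mitochondrial and predicted genes left out; the 10 named coding or long noncoding genes with the largest ratio between libraries; the 12 with the largest ratio in replicate 3; and the 6 with the largest difference from microglia in each direction, without predicted and mitochondrial genes. Others are said to be chosen after their values were seen. The alternatives tried were other scalings, filters, equal depth, a replicate block, DESeq2 and leaving out each library. PAPERCLIP and other microglia files were not used. Some listed genes are not reported here.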

Additional observations from a re-analysis of the deposited data

How the results depend on the processing

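With mitochondrial and satellite-like genes out of the total, every cortex level is higher by construction. Mean levels were then 49.5 CPM for Ptbp1, 36.7 for Ptbp2, 86.3 for Ptbp3, 6084 for Tuba1a, 2042 for Dcx and 584 for Fabp7. List shares were 0.275% for apical progenitors, 0.0150% for intermediate progenitors, 2.33% for newborn neurons, 0.281% for upper layers and 0.0883% for deep layers, and the interneuron median in replicate 3 was -0.52. This scaling and TMM factors for the replicate 3 medians were added after the data had been seen. The common biological coefficient of variation was 0.0752 to 0.167 with each library left out, lowest without replicate 3. Genes with a ratio of at least 2 numbered 20 to 81 with each library left out, 20 without replicate 3, and 752 at a mean of 1 CPM or more. Genes far higher in replicate 3 numbered 169 at 1 CPM or more, as more genes enter.

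Against microglia, 9206 genes were called and 4869 were higher with all libraries thinned to the shallowest total; fewer counts enter that test. Leaving out each library gave 10946 to 14233 calls, 6176 to 8994 higher and 4755 to 5285 lower. DESeq2 called 13791. The numbers of the libraries were not read as pairs. Deviations of same-numbered libraries correlated at -0.03, -0.08 and -0.11, and those of differently numbered libraries at -0.12 to 0.15. With 3 libraries in each group these correlations cannot decide on pairing. The fit with the replicate block called 13723 genes, 8506 higher and 5217 lower. For 18 named genes, all 234 recomputed values kept their direction and side of the threshold. The 18 are the PTB genes, the tissue markers and the genes with the largest differences from microglia in each direction. The last were chosen for their size and could hardly have changed side, so this result says little of other genes. For Ptbp2, whose difference was the smallest of the 18, the log2 difference ran from -1.52 (thinned) to -0.98 (no filter). Levels per coding kb were not run, since exonic lengths were not used here. The microglia depth limits the low side, since 3 counts over that group are worth 0.597 CPM.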
